A study of Cicer arietinum with 32 samples.

Results

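The transcripts described here were specific to FB1, the youngest of the 4 flower bud stages sampled in chickpea (Cicer arietinum). They were chosen by the tissue specificity index Tau, which is 0 for a transcript at the same level everywhere and 1 for a transcript found in a single tissue. Tau was calculated on log2(FPKM + 1) over 31 tissues/organs, where FPKM is a fragment count scaled by transcript length and by the mapped fragments of the library. Of 38818 transcripts, 192 had a Tau of at least 0.9, their highest FPKM in FB1 and an FPKM there of at least 0.5. A transcription factor (TF) family was listed for 8 of these, and the other 184 are the FB1-specific transcripts of this account. The TF listing covered the first identifiers only and held 70 of the 184, so TF transcripts may remain among the rest. Since every one of the 31 values entered Tau, all levels below are given as a description, with no test.

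The series was an expression atlas of 32 tissues/organs of the genotype ICC4958, untreated and grown in a culture room, in a greenhouse or in the field. The buds (FB1, FB2, FB3 and FB4) and the flowers (FL1 to FL5) were harvested whole in order of development. The androecium (And, the stamens), gynoecium (Gyn), calyx (Cal), corolla (Cor) and pedicel (Pedi) were dissected from flowers at about the FL2 stage by the study's methods, while its sample list calls these flowers unopened. The other tissues were bracteole (Brac, a small leaf-like organ borne below the flower), shoot apical meristem (SAM), young and mature leaf (YL, ML), shoot, germinating seedling (GS), root, root tip, root hair (RH), nodule (Nod), pod shell, seed coat (SdCt), embryo, endosperm (Endo) and whole seed at 4 ages, named by days after pollination as 5DAP, 10DAP, 20DAP and 30DAP.

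Each tissue had 1 deposited value per transcript, an average over 3 libraries, or over 2 for 20DAP and 30DAP, so the deposited values carry neither the spread between libraries nor the number of reads behind a single value. Over all transcripts the FPKM added up to 791822 in FB1, with 597153 (nodule) the lowest and 959753 (endosperm) the highest such sum. The 20DAP values were estimated counts and did not enter the rule. In whole organs, fewer cells of a type and less RNA per cell cannot be told apart.

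A young flower bud holds sepals, petals, stamens and carpel while they are still forming. Within the anther, the tapetum, a nurse layer around the developing microspores, is active for a short time, feeds the microspores, supplies lipids and proteins of the pollen wall and coat, and then dies. Genes used in the tapetum or in early microspores are therefore known in many plants for a short burst in young buds and for silence in mature stamens.

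FB1 had the tenth largest set of specific transcripts. Under the same rule, TF genes included, 192 were counted in FB1, against 49 in FB2, 9 in FB3, 23 in FB4, between 9 and 35 in FL1 to FL5, 679 in And, 78 in Gyn and 113 in SAM. The FB1-specific transcripts summed to 7680 FPKM in FB1, which was 0.97% of that tissue's FPKM sum. Their sum was 648 FPKM in FB2, 78.9 FPKM in FB3, 17.3 FPKM in FB4 and between 10.3 and 12.8 FPKM in FL1 to FL5. The sum thus was lower at each bud stage than at the one before it, and it differed little among the flower stages. Outside the buds, it was highest in Brac at 213 FPKM, in Endo at 99.998 FPKM and in And at 53.5 FPKM, and it was 13.1 FPKM in SAM and 9.501 FPKM in Gyn.

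**Figure D1:**
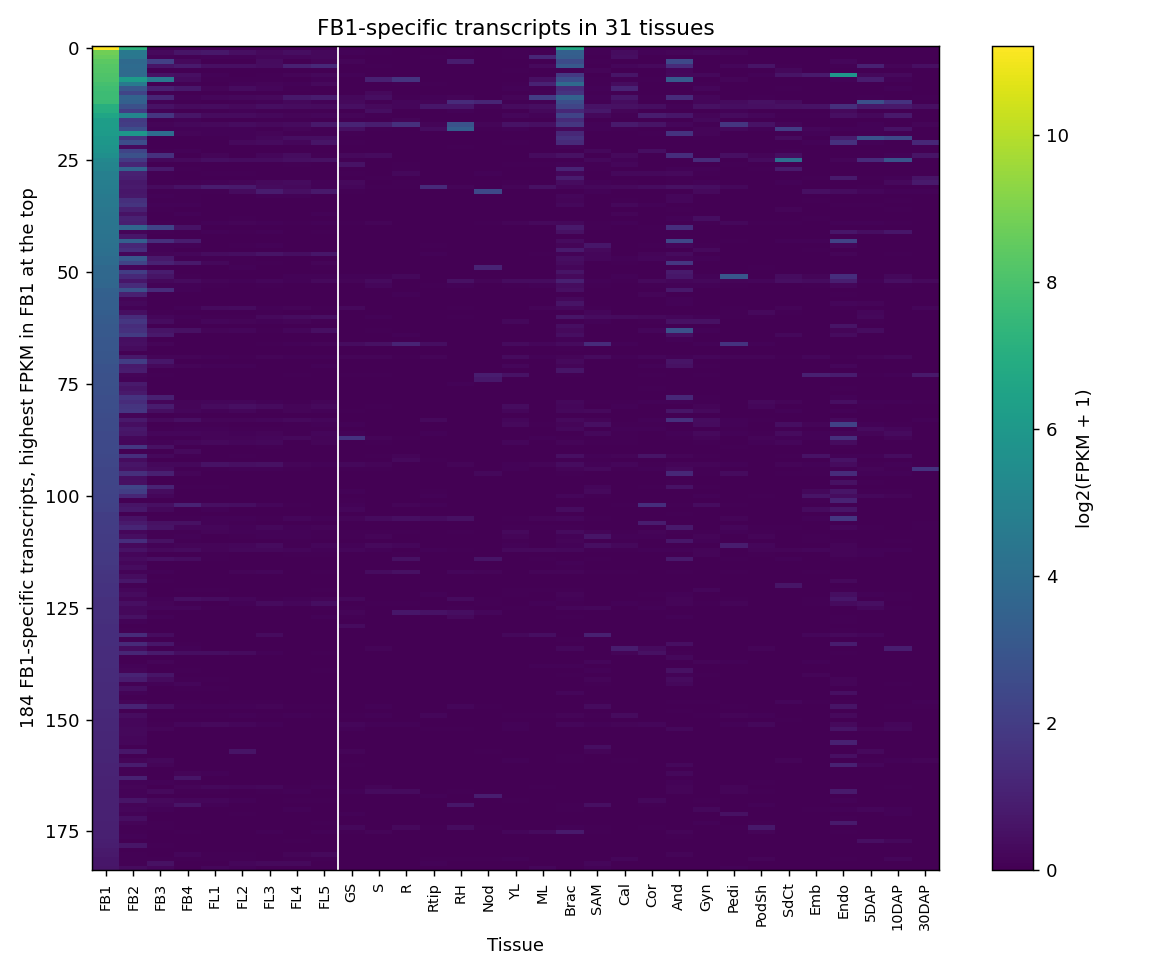
Level of each of the 184 FB1-specific transcripts (rows, highest FPKM in FB1 at the top) in 31 tissues (columns), as log2(FPKM + 1) by colour. The white line ends the bud and flower stages. The FB1 column darkens from 2365 FPKM at the top to 0.540 FPKM at the bottom, the FB2 column is coloured mostly in its upper rows, and in the Brac column the top rows stand out from the leaf columns beside it.

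Levels in FB1 ranged from 0.540 to 2365 FPKM with a median of 4.28 FPKM. An FPKM of at least 100 was reached by 15 transcripts and one of at least 10 by 55, while 119 lay between 1 and 10 and 10 lay under 1. A single transcript, Ca_TC15969, for which no description was listed, stood far above the rest. Its level was 2365 FPKM in FB1, 147 FPKM in FB2 and 0.000 FPKM in FB3 and FB4, and it was 0.000 FPKM in And and Gyn, 0.040 FPKM in SAM and 104 FPKM in Brac. Without it, the sum over the FB1-specific transcripts was 5315 FPKM in FB1, 502 FPKM in FB2 and 109 FPKM in Brac.

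The second highest was Ca_TC00376, whose best match is 3-ketoacyl-CoA synthase 10 of Arabidopsis. Enzymes of this family catalyse the first step in lengthening very-long-chain fatty acids, which go into cuticle, wax and pollen coat, and in Arabidopsis this member is known as FIDDLEHEAD and acts in the epidermis of floral organs. Ca_TC00376 stood at 434 FPKM in FB1, 21.2 FPKM in FB2, 0.200 FPKM in FB3 and 0.540 FPKM in FB4, and at 0.097 FPKM in And, 0.190 FPKM in Gyn and 0.040 FPKM in SAM. Its neighbour Ca_TC00377 matches 3-ketoacyl-CoA synthase 6, which in Arabidopsis makes wax and pollen coat lipids. It was at 19.8 FPKM in FB1, 0.443 FPKM in FB2, 0.000 FPKM in FB3 and 0.080 FPKM in FB4. In the authors' coordinates on the kabuli genome v1.0, Ca_TC00376 spans bases 2440060 to 2443325 of pseudomolecule Ca1 and Ca_TC00377 bases 2442184 to 2443307, so that all 1124 bases of the second span lie inside the first. Reads from this locus could be divided between the pair in more than one way, and their separate levels are uncertain.

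Ca_TC01696 belongs to the lipid-transfer protein superfamily, small secreted proteins that bind lipids, and lies at bases 13057714 to 13058483 of Ca1. Its levels were 329 FPKM in FB1, 13.3 FPKM in FB2, 3.31 FPKM in FB3 and 0.233 FPKM in FB4. It was listed at 0.000 FPKM in FL2 and in Gyn but at 4.51 FPKM in And, above its levels in FB3 and FB4. Ca_TC09699 matches NOD26-like intrinsic protein 7;1, a membrane channel that carries boric acid in the anthers of Arabidopsis. It stood at 269.8 FPKM in FB1, 70.2 FPKM in FB2, 21.9 FPKM in FB3 and 0.237 FPKM in FB4, and at 7.96 FPKM in And, 0.027 FPKM in Gyn and 0.037 FPKM in SAM. Of the 12 highest transcripts, it kept the largest part of its FB1 level in FB2, 26.0%, and in FB3, 8.10%.

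The other 8 of the 12 highest had no description listed. Ca_TC02046 was at 387 FPKM in FB1 and 20.5 FPKM in FB2, and Ca_TC02047, which carries the next identifier, was at 240.0 FPKM in FB1 and 22.6 FPKM in FB2. Ca_TC27734 was at 305 FPKM in FB1 and 14.3 FPKM in FB2, and it remained measurable in the later flowers at 0.970 FPKM in FL4 and 1.44 FPKM in FL5. In each of these 3, FB2 held under 10% of the FB1 level. Ca_TC11108 was at 296 FPKM in FB1 and 13.7 FPKM in FB2, and it was listed at 0.000 FPKM from FB3 to FL5 and in Brac. Ca_TC04001 was at 218 FPKM in FB1 and 6.94 FPKM in FB2, and Ca_TC23944 was at 207 FPKM in FB1 and 3.99 FPKM in FB2. Ca_TC01642 was at 206 FPKM in FB1 and 10.7 FPKM in FB2, and Ca_TC21766, at 279 FPKM in FB1 and 13.9 FPKM in FB2, was the only one of the 12 whose second-highest tissue was not FB2 but Endo, at 58.8 FPKM. Over the 12, FB2 held a median of 4.92% of the FB1 level, with a range of 1.92% to 26.0%.

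Among the less abundant transcripts with a description, Ca_TC01382, of the leucine-rich repeat family, was at 23.5 FPKM in FB1 and 0.667 FPKM in FB2. Ca_TC00993 matches a small subunit of DNA polymerase delta, a replication enzyme, and was at 4.90 FPKM in FB1, 0.703 FPKM in FB2 and 1.92 FPKM in And. Ca_TC00694 matches a subunit of the splicing factor SF3B and was at 1.59 FPKM in FB1, 0.097 FPKM in FB2 and 0.417 FPKM in And. Both of the last named had And as their second-highest tissue. Ca_TC13153 is described as a basic helix-loop-helix (bHLH) protein, a class of TFs, in another of the study's tables. The TF listing used for the rule ended before its identifier, so it stayed in the set, at 12.2 FPKM in FB1, 0.577 FPKM in FB2 and 0.987 FPKM in Brac.

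Over all 184, the median share of the FB1 level found in FB2 was 8.54%. In FB3 it was 0.617%, in FB4 0.200%, and in FL1 to FL5 between 0.064% and 0.098%. FB2 was above FB3 in 170 of the 184, and 129 had an unbroken decrease or no change at each step to FB4. On the log2(FPKM + 1) scale the median difference of FB1 minus FB2 was 1.497. The difference was at least 1 in 134 of the 184, against 1.45% of all transcripts, a contrast that the rule itself used and from which nothing is read.

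The share left in FB2 split the set into 3 classes. In 106 transcripts FB2 held under 10% of the FB1 level, with class medians of 4.62% in FB2 and 0.143% in FB3. In 60 it held from 10% to under 50%, with medians of 17.7% in FB2, 3.62% in FB3 and 0.648% in FB4. In 18 it held 50% or more, with medians of 71.4% in FB2, 16.7% in FB3 and 1.35% in FB4. In each class the median was lower at FB2, FB3 and FB4 than at the stage before. The split used the FB2 value, so the differences in FB2 between the classes restate it.

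**Figure D2:**
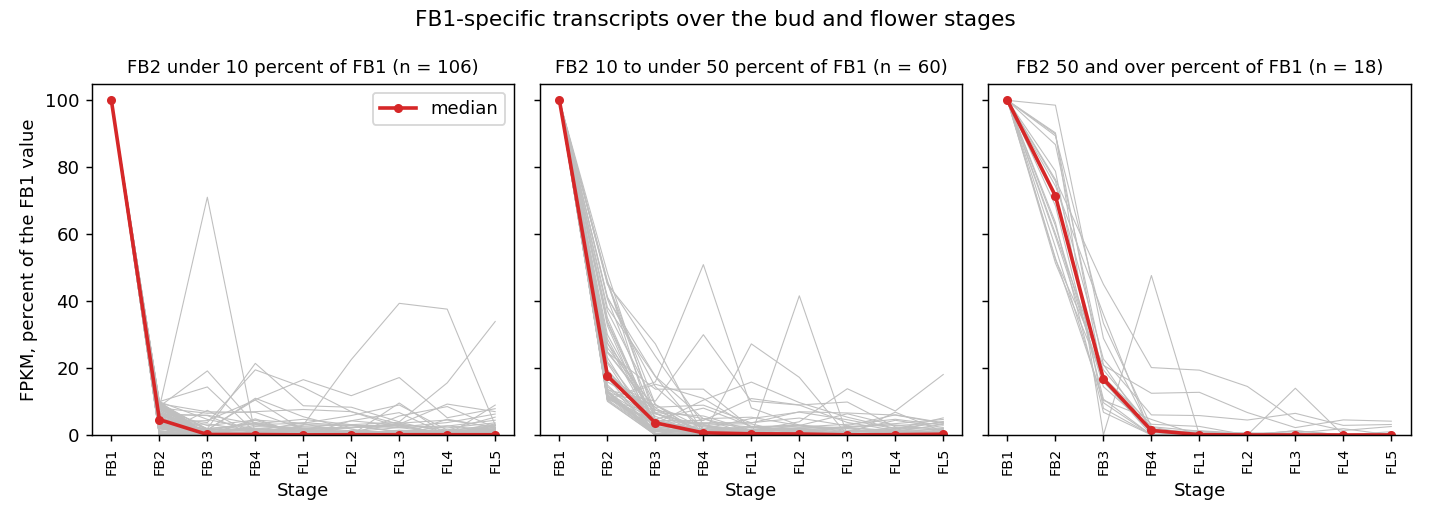
FPKM as a percent of the FB1 value (y axis) over the 9 bud and flower stages (x axis) for the FB1-specific transcripts, split by the percent left in FB2. Grey lines are single transcripts and the red line is the median. The median at FB2 is 4.62%, 17.7% and 71.4% from the left panel to the right, and by FB4 it is at most 1.35% in all 3 panels.

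Ca_TC21195, with no description listed, was the most abundant of the slow class. Its levels were 70.0 FPKM in FB1, 60.7 FPKM in FB2, 14.7 FPKM in FB3 and 0.10 FPKM in FB4, and it was at 2.08 FPKM in And. Ca_TC02454 kept the largest share in FB2, 98.6%, at 3.96 FPKM in FB1, 3.900 FPKM in FB2, 1.14 FPKM in FB3 and 0.037 FPKM in FB4. Both were near their FB1 level in FB2 and almost absent by FB4. Ca_TC23150, at 94.7 FPKM in FB1 and 33.2 FPKM in FB2, came next in FB2 after Ca_TC15969, Ca_TC09699 and Ca_TC21195.

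An FPKM of at least 0.5 was reached by 93 of the 184 in FB2, against 62.7% of all transcripts, and by 26 in FB3, against 62.4% of all transcripts. The count was 9 in FB4, where 61.5% of all transcripts reached that level, and between 1 and 6 in FL1 to FL5, where 60.9% did in FL1, FL2 and FL4, 61.0% in FL3 and 61.1% in FL5. In SAM 5 did, against 60.0% of all transcripts, in And 22, against 57.2%, and in Gyn 1, against 60.7%. A low count outside FB1 follows from the rule, so only the differences in count among the tissues describe the set. No tissue but FB1 held an FPKM of at least 0.5 for 64 transcripts, and for 28 more FB2 was the only other one. Only 2 were listed at 0 in all 30 other tissues.

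**Figure D3:**
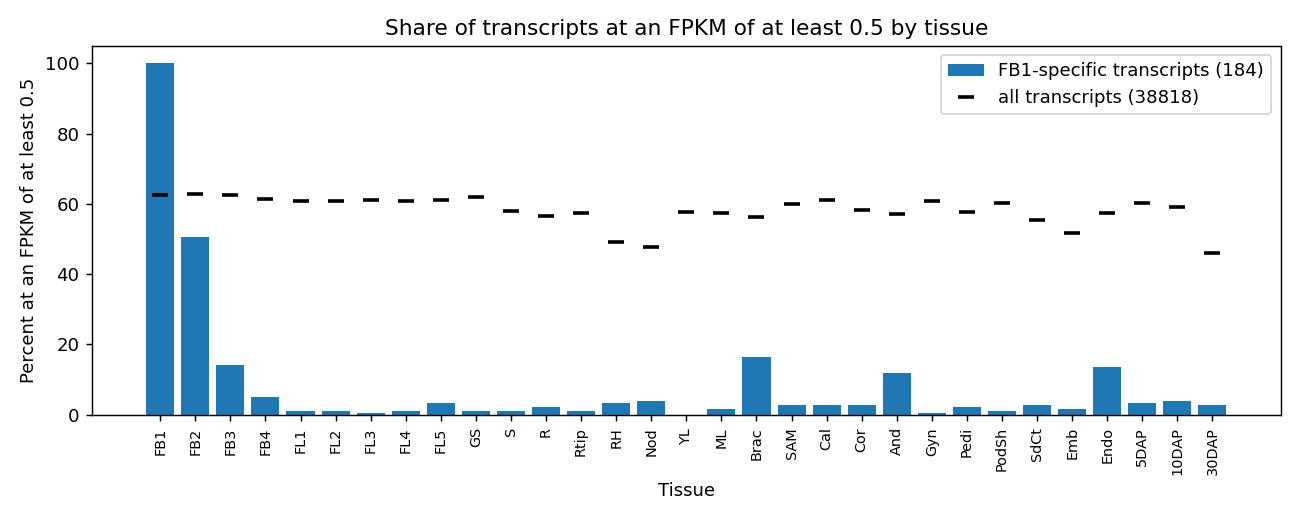
Percent of transcripts at an FPKM of at least 0.5 (y axis) in each of 31 tissues (x axis). Bars are the 184 FB1-specific transcripts and black dashes are all 38818 transcripts. The bars for FB2 (50.5%), Brac (16.3%), FB3 (14.1%), Endo (13.6%) and And (11.96%) are the tallest after FB1, while the dashes lie between 45.9% and 62.7%.

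In the androecium the 4 highest FB1-specific transcripts were Ca_TC09699, Ca_TC27144, Ca_TC01696 and Ca_TC14848. Ca_TC27144 was at 7.63 FPKM in FB1, 1.90 FPKM in FB2, 0.510 FPKM in FB3, 0.433 FPKM in FB4 and 5.91 FPKM in And, which was 77.4% of its FB1 level. Ca_TC14848 was at 17.9 FPKM in FB1, 9.48 FPKM in FB2, 1.86 FPKM in FB3 and 4.20 FPKM in And. For each of these the And value lay above the FB4 value. Of the 22 transcripts at an FPKM of at least 0.5 in And, 21 reached that level in FB2 and 17 in FB3, but 0 reached it in whole FL2 flowers. By class, 3 of the 106 transcripts with under 10% left in FB2, 14 of the 60 with 10% to under 50% and 5 of the 18 with 50% or more were among the 22.

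In the gynoecium the 4 highest were Ca_TC26217, Ca_TC29953, Ca_TC19889 and Ca_TC25753, at 1.56, 0.433, 0.420 and 0.340 FPKM. Only Ca_TC26217 passed 0.5 FPKM there. It was at 36.6 FPKM in FB1 and 2.80 FPKM in FB2, and it stood higher in SdCt, at 15.8 FPKM, and in 10DAP seed, at 6.58 FPKM, than in FB2. In the meristem the 4 highest were Ca_TC08374, Ca_TC38671, Ca_TC04339 and Ca_TC22719, at 1.63, 0.977, 0.653 and 0.620 FPKM. These values were 22.7%, 54.6%, 0.522% and 3.66% of the FB1 levels.

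The second-highest tissue was FB2 for 106 transcripts, Endo for 17, And for 10 and Brac for 5, and each of the others accounted for at most 4. Taken by kind of tissue, it was a later bud or flower stage for 114, a floral organ for 18, a seed or pod tissue for 28 and a root tissue or nodule for 11.

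In Brac, an FPKM of at least 0.5 was reached by 30 of the 184, against 56.4% of all transcripts, while in YL 0 did, against 57.7%, and in ML 3 did, against 57.3%. The transcripts measured in Brac were mainly those highest in FB1. With the set ordered by FB1 level, they numbered 24 of the top 46, 5 of the next 46, 0 of the 46 after those and 1 of the lowest 46. Among the 12 highest, 11 were at an FPKM of at least 0.5 in Brac and the exception was Ca_TC11108. The Brac level of those 12 was a median of 2.07% of the FB1 level, from 0 to 5.72%. In 27 of the 30, the Brac level was below the FB2 level. Ca_TC02047 was at 13.7 FPKM in Brac, Ca_TC01642 at 10.1 FPKM, Ca_TC00376 at 9.36 FPKM and Ca_TC02046 at 9.03 FPKM.

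Other floral transcripts were not all alike in Brac. The marker Ca_TC00525 matches AGAMOUS, the Arabidopsis regulator of stamen and carpel identity. It was highest in Gyn at 166 FPKM, and stood at 118 FPKM in pod shell, 74.9 FPKM in FB1, 72.2 FPKM in And and 61.6 FPKM in Cal. Its level was 2.95 FPKM in Brac, 5.93 FPKM in Pedi, 13.7 FPKM in SdCt, 1.31 FPKM in SAM, 0.843 FPKM in YL and 0.867 FPKM in ML. Ca_TC34513 and Ca_TC00384, at 959 and 166 FPKM in And but 2.55 and 7.92 FPKM in FB1, were listed at 0.000 FPKM in Brac. Among the FB1-specific transcripts under 10 FPKM in FB1, 4 of 129 reached 0.5 FPKM in Brac. Among those at 10 FPKM or more in FB1, 26 of 55 did. Zeros at such low FB1 levels therefore set these 2 apart from few of the FB1-specific transcripts. The share at an FPKM of at least 0.5 in Brac was 16.3% for the FB1-specific transcripts, against 11.1% (1 of 9) for those specific to FB3, 7.69% (7 of 91) for Cal, 2.04% (1 of 49) for FB2, 1.28% (1 of 78) for Gyn, 0.147% (1 of 679) for And and 0% for FB4, Cor and SAM. The median level in the own tissue was 4.28 FPKM for the FB1-specific transcripts, and between 1.52 and 3.12 FPKM for these other sets. A median does not show the upper levels of a set, and these were not compared. The other sets also include TF transcripts. The part of bud tissue in the bracteole samples was not tested.

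**Figure D4:**
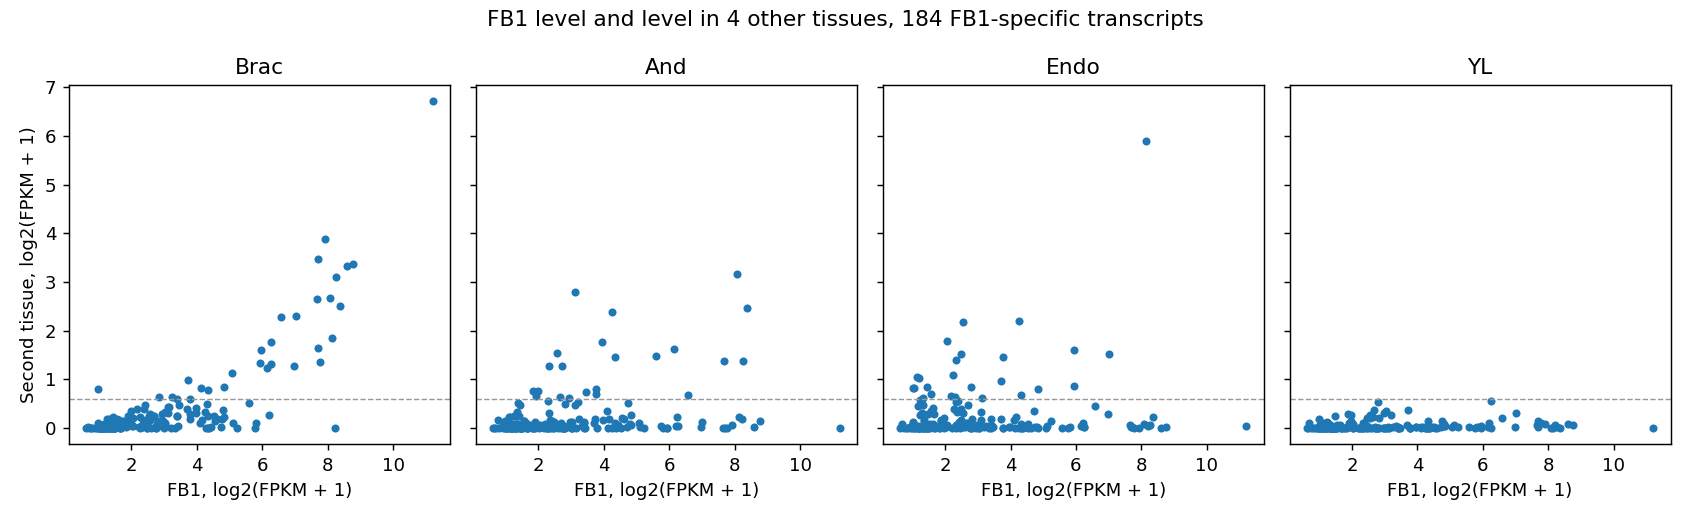
Level of the 184 FB1-specific transcripts in FB1 (x axis) and in bracteole, androecium, endosperm and young leaf (y axis, 1 panel each), both as log2(FPKM + 1). Each point is a transcript and the dashed line marks an FPKM of 0.5. In Brac the points tend to climb with the FB1 level. Exceptions at 0 FPKM in Brac are Ca_TC11108, Ca_TC16386 (53.2 FPKM in FB1), Ca_TC00377 (19.8), Ca_TC25753 (19.4) and Ca_TC23589 (18.3). In And and Endo high points occur at many FB1 levels, and in YL no point passes the line.

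In Endo 25 transcripts were at an FPKM of at least 0.5, against 57.5% of all transcripts, and they were spread over the FB1 levels, with 7 of the top 46, 6 and 7 of the next groups of 46 and 5 of the lowest 46. Ca_TC21766 was by far the highest there at 58.8 FPKM, or 21.0% of its FB1 level. It was followed by Ca_TC14848 at 3.58 FPKM (19.9%), Ca_TC15130 at 3.49 FPKM (71.8%) and Ca_TC21725 at 2.47 FPKM (79.0%). For Ca_TC12599, at 1.19 FPKM in FB1 and 1.05 FPKM in Endo, the share was 88.7%. With 1 averaged value per tissue, such close levels cannot be ordered. Unlike Brac, Endo did not follow the FB1 level. A few transcripts, picked out after their values were seen, had a second site elsewhere in the plant. Ca_TC30131 was at 72.8 FPKM in FB1 and 9.11 FPKM in RH, Ca_TC16446 at 25.4 FPKM in FB1 and 4.40 FPKM in Nod, and Ca_TC04852 at 60.7 FPKM in FB1 and 6.05 FPKM in 5DAP seed.

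The 8 TF transcripts left out met the same rule, so a lower level in FB2 than in FB1 follows from it. Ca_TC11599 (bHLH) was the highest, at 80.5 FPKM in FB1, 3.03 FPKM in FB2, 0.067 FPKM in FB3 and 0.10 FPKM in FB4, and at 1.88 FPKM in Brac. Ca_TC01098 matches LOB domain-containing protein 27, which Arabidopsis needs for the division of the microspore, and was at 2.94 FPKM in FB1, 0.220 FPKM in FB2 and 0.000 FPKM in every later stage and in And. In both, FB2 held under 10% of the FB1 level. Ca_TC04644 (Alfin-like) was at 4.92 FPKM in FB1 and 0.053 FPKM in FB2, Ca_TC01327 (LOB) at 2.68 and 0.860 FPKM, and Ca_TC04703 (WRKY) at 2.55 and 0.193 FPKM. Ca_TC00251 (CCHC) was at 1.51 FPKM in FB1 and 0.473 FPKM in FB2, Ca_TC04691 (NAC) at 1.47 and 0.037 FPKM, and Ca_TC07467 (MYB) at 1.25 and 0.073 FPKM.

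Other genes of anther and lipid pathways were read from the listed part of the study's annotation. Of 7 transcripts described as 3-ketoacyl-CoA synthase, the FB1-specific pair Ca_TC00376 and Ca_TC00377 were at least 2-fold higher in FB1 than in FB2 on the log2(FPKM + 1) scale, and the other 5 were under 0.5 FPKM in each of the 31 tissues. The spans of this pair overlap, so their separate levels are uncertain. Of 7 described as lipid or glycolipid transfer proteins, Ca_TC01696 alone was highest in FB1. Of 14 described as pectin methylesterases or their inhibitors, which remodel the cell wall, 0 were FB1-specific, 1 was at least 2-fold higher in FB1 than in FB2 and 3 at least 2-fold lower. The highest of these, Ca_TC34513, was at 2.55 FPKM in FB1, 21.8 FPKM in FB2 and 959 FPKM in And, the opposite order in time to the FB1-specific transcripts.

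Of 30 transcripts with a gene ontology process naming pollen, anther, stamen, tapetum or the making of microspores, Ca_TC01098 alone was FB1-specific under the rule, and it alone was highest in FB1, while 5 were highest in And. Of 5 listed for meiosis or synapsis, 0 were FB1-specific and 1 was highest in FB1. That was Ca_TC00111, a homolog of separase, the protease that lets sister chromatids part, at 5.66 FPKM in FB1, 4.21 FPKM in FB2 and 5.51 FPKM in Gyn. Also among the 5, Ca_TC00953, a match of the Arabidopsis gene that lets meiosis end, was at 1.18 FPKM in FB1, 0.797 FPKM in FB2 and 2.297 FPKM in Gyn. Ca_TC02072, a marker outside that list, matches the DNA repair nuclease MRE11 and was at 6.63 FPKM in FB1 and 5.74 FPKM in FB2. Both of the last named were highest in Gyn. Of 3 listed for cuticle, cutin, wax or suberin, Ca_TC00377 alone was FB1-specific, and its level apart from the overlapping Ca_TC00376 is uncertain.

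The study grouped into coexpression modules only those transcripts whose levels varied enough across the tissues. Of the 184, 21 were in M10, which held 257 transcripts, while 0 were in M1, M11, M12 or M13. Membership was counted for these modules only, since the modules were not listed completely. The 21 had FB1 levels from 32.7 to 2365 FPKM and included the 12 highest. For a transcript found mainly in FB1, the variation across tissues is larger at a higher FB1 level. How many of the 184 varied enough to enter the modules was not counted. Neither the number nor the levels of the 21 are therefore read as a trait of M10. In M10 the highest tissue was And for 199 transcripts and FB1 for 27. The 21 had a median of 0.090 FPKM in And, against 83.5 FPKM for the other 236 transcripts of the module. The rule required low And levels of the 21, so nothing is read from this difference.

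Of the 70 FB1-specific transcripts in the listed part of the specificity table, 8 (11.4%) were long non-coding RNAs (lncRNAs). Of the 1636 transcripts there that were specific to other tissues, 610 (37.3%) were. This second share pools many tissues, and in the study the lncRNA part differed widely between tissues. It was not counted here for single tissues, so the FB1 share cannot be placed among them. The 8 lncRNAs were low, from 0.617 to 6.11 FPKM in FB1. The highest were Ca_TC11547, at 6.11 FPKM in FB1 and 0.803 FPKM in FB2, and Ca_TC03439, at 5.29 FPKM in FB1 and 2.40 FPKM in FB2. This list covers the first identifiers only, and TF transcripts had been taken from the FB1 set.

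Consecutive identifiers were held by 27 of the 184 transcripts (14.7%), in 12 pairs and 1 run of 3. Under the same rule, the share was 20.2% of 679 for And, 34.5% of 1274 for Endo and 36.7% of 1020 for Nod. It was 8.16% of 49 for FB2 and 0% of 113 for SAM. In sets nearer in size it was 10.6% of 151 for pod shell, 9.80% of 204 for root tip, 18.2% of 209 for 10DAP and 22.7% of 251 for 30DAP. A larger set holds more consecutive identifiers by its size alone, and no share over all transcripts was counted. No difference between tissues is read from these shares. On the first pseudomolecule 98.8% of consecutive identifiers had starts within 50 kb, so such transcripts mostly lie near each other. The runs with the highest sums in FB1 were Ca_TC02046 and Ca_TC02047 (627 FPKM), Ca_TC00376 and Ca_TC00377 (454 FPKM), Ca_TC19888 and Ca_TC19889 (129.6 FPKM), and Ca_TC25499 and Ca_TC25500 (74.5 FPKM). Within these pairs FB2 held 5.30% and 9.41%, 4.87% and 2.24%, 9.69% and 4.35%, and 3.75% and 12.6% of the FB1 level. Where neighbours are similar copies, the authors' counting could share reads between them, which was not tested.

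At the edge of the rule, the 4 transcripts just inside were Ca_TC30606, Ca_TC38671, Ca_TC26217 and Ca_TC08498, with Tau of 0.901, 0.902, 0.902 and 0.903. Just outside were Ca_TC17494, Ca_TC01515, Ca_TC13138 and Ca_TC17597, with Tau of 0.8997, 0.8997, 0.897 and 0.896. Their FB1 levels of 14.3, 9.09, 1.15 and 1.94 FPKM lay within the range of the chosen transcripts.

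The 20DAP seed stood outside the rule. An estimated count above 0 was found there for 61 of the 184 transcripts, against 74.3% of all transcripts, and one above 3 for 17, against 62.9%. The rule asked for low levels in seed of the other ages and in the seed parts, so low counts in 20DAP were likely beforehand.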

How the data were processed

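RNA-seq was done by the authors on 32 tissues/organs, with 3 libraries for 30 of them and 2 for 20DAP and 30DAP. Per the study's methods, paired-end reads were filtered with NGS QC Toolkit, aligned with bowtie2 to the authors' own transcriptome assembly and quantified with RSEM. The authors deposited an average FPKM per tissue for 38818 transcripts, which is divided by transcript length and mapped fragments. The 20DAP file carries the same heading, but its deposited values are estimated counts. They sum to 29579443, and 22.2% of those above 0 are whole numbers, against at most 0.791% elsewhere. 20DAP was left out of Tau.

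Tau was the sum of 1 minus each tissue's log2(FPKM + 1) over the highest, divided by 30. It was tested on simulated data. With 1 averaged value per tissue no test between tissues was possible, and shares and counts are given beside those of all transcripts. Expression was counted from an FPKM of 0.5, and differences used log2 with a pseudocount of 1, which understates the change of low transcripts. The members and lists were chosen with earlier results of these data known.

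The named transcripts were the 12 highest in FB1, those with a description, the 4 highest in each of FB2, SAM, And and Gyn, the 4 runs of consecutive identifiers highest in FB1, 4 on each side of the Tau threshold, list genes that were members, and the TF transcripts left out. Marker genes fixed beside this rule and genes of the pathway lists are also named. Transcripts named for Endo, Brac, root hair, nodule and seed, single lncRNAs, Ca_TC02454 and the genes named from the pathway lists were picked after their values were seen. Descriptions, TF families, modules, types and coordinates came from the listed parts of the study's supplementary tables, which are not complete. Of the identifiers, 0 were found in the RefSeq gene list, and no sequence was used here. Alternatives changed the pseudocount, the Tau and FPKM minimums, the scaling and the tissues used. Calculations used Python 3.11.15, numpy 2.4.6 and pandas 2.3.3.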

Additional observations from a re-analysis of the deposited data

Results flagged for a closer look

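The 20DAP seed values did not enter the rule, so they were looked at separately. An estimated count above 0 was found for 61 of the 184 FB1-specific transcripts (33.2%), against 74.3% of all transcripts, and one above 3 for 17, against 62.9%. The median was 0 estimated counts, against 25.5 for all transcripts. Because the rule asked for low levels in seed of the other ages and in the seed parts, nothing is read from these contrasts. The highest were Ca_TC25497 at 83.5 estimated counts, Ca_TC19889 at 45.4, Ca_TC26217 at 39.0 and Ca_TC28350 at 22.0. Ca_TC25497 was at 2.15 FPKM in FB1 and 0.047 FPKM in FB2. These counts are not divided by transcript length, so they cannot be set beside the FPKM of the other tissues.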

How the results depend on the processing

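Of 11 alternatives, 9 left the number of FB1-specific transcripts within 1.5 times of 184, from 151 to 241. It was 112 with a Tau of at least 0.95 and 107 with a pseudocount of 0.1 in Tau, and all of these were among the 184. Leaving Brac out of Tau, an alternative chosen after seeing the data, gave 183, of which 182 were shared, and 16.9% of them were at an FPKM of at least 0.5 in Brac, against 16.3%.

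The share at an FPKM of at least 0.5 in FB2, 50.5%, was 40.2% with a Tau of at least 0.95, 38.6% with no FPKM minimum in FB1 and 41.1% after quantile normalization. In And, 11.96%, it was 1.79% with a Tau of at least 0.95 and 4.67% with a pseudocount of 0.1. In SAM, 2.72%, it was 6.90% with a Tau of at least 0.85. In Gyn, 0.543%, it was 0% with a Tau of at least 0.95, with a pseudocount of 0.1 and with 20DAP included as deposited. With expression counted from an FPKM of 0.1, the shares were 80.4% in FB2, 28.8% in And, 17.9% in SAM and 16.3% in Gyn. Counted from 1, they were 35.3% in FB2, 7.07% in And and 0.543% in SAM. The median log2 difference of FB1 minus FB2, 1.497, was 1.35 with a Tau of at least 0.85, 1.17 with no FPKM minimum and 2.99 with a pseudocount of 0.1 for the same transcripts. The cause was not tested. The shares in low-level transcripts rest on values deposited without their read numbers. No paired analysis was possible because each tissue has 1 averaged value.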
